A study of Mus musculus with 12 samples.

Results

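Wide stretches of lysine crotonylation (Kcr) called in homecage hippocampus, with no called peak over them after learning, are described here. They were selected on 2 features of the peak lists: a homecage peak on chromosomes 1 to 19 of 1000 bp or more, and no overlap, by even 1 bp, with a peak of the learning list. The rule found 8449 such domains among 329508 homecage peaks on these chromosomes (2.56%). They are set beside 115465 homecage peaks of 300 to 500 bp (narrow peaks) and beside the 1564 wide homecage peaks that did overlap a learning peak. Both libraries came from dorsal hippocampus of C57BL/6J mice, crosslinked from about 20 mg of fresh tissue, sonicated to fragments of 200 to 500 bp and precipitated with a pan-Kcr antibody. One condition was mice kept in the homecage, the other mice trained in the Spatial Object Recognition task, in which a rodent learns where objects stand. Each condition had 1 antibody library, how many animals it held is not stated, and 8 single-nucleus libraries and both input libraries of the series were not analysed here. The lists give position and width only, so strength and read depth are unknown and no value below compares how much crotonylation a locus carried.

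Crotonylation is a short-chain acylation of lysine made from crotonyl-CoA. The acetyltransferases p300 and CBP can add it to histone tails, class I histone deacetylases and some sirtuins can remove it, and proteins with YEATS or double PHD finger domains bind it. On histones it is known from active promoters and enhancers, much like acetylation. A broad peak is a run of enriched windows that a peak caller links into a single interval, so its width depends both on the spread of the mark and on how well the library fills the gaps between windows.

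The promoters below contrast CpG-poor and CpG-rich sequence under these domains. Each run is the RefSeq promoter of GRCm38.p6, 250 bases before to 50 bases after an annotated start, written 5′ to 3′ on the gene's strand (minus in all 5), with each CG dinucleotide in capitals. The first 3 belong to the widest domains that hold such a promoter whole, and those of Grm2 and Gabra2, which were chosen after their values were seen, are CpG-rich promoters of neurotransmitter receptors. Vmn1r159 and Vmn1r138 are type 1 vomeronasal (pheromone) receptor genes, and Nfix encodes a nuclear factor I transcription factor with several annotated starts.
Vmn1r159, chr7:22843556-22843855: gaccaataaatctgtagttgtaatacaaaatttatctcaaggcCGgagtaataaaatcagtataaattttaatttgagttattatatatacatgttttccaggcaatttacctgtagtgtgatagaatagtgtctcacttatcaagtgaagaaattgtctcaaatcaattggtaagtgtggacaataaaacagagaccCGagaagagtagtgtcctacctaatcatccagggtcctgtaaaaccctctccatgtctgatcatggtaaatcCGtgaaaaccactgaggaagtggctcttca
Vmn1r138, chr7:22028848-22029147: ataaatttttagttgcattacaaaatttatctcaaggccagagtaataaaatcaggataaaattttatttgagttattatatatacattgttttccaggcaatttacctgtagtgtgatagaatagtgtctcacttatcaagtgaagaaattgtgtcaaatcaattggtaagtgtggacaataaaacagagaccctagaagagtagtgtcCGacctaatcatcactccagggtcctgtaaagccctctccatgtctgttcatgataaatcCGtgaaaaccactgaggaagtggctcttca
Nfix, chr8:84772826-84773125: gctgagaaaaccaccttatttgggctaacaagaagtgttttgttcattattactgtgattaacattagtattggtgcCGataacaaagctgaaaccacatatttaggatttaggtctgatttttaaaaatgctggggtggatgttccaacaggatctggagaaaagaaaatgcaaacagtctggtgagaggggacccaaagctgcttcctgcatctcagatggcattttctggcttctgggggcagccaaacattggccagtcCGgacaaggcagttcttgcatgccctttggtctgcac
Grm2, chr9:106656060-106656359: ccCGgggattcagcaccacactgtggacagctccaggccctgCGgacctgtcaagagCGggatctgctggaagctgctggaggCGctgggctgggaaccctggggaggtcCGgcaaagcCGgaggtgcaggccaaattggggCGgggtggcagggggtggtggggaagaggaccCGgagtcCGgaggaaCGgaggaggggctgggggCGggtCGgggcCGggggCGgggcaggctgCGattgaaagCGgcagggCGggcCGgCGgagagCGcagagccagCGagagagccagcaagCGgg
Gabra2, chr5:71095800-71096099: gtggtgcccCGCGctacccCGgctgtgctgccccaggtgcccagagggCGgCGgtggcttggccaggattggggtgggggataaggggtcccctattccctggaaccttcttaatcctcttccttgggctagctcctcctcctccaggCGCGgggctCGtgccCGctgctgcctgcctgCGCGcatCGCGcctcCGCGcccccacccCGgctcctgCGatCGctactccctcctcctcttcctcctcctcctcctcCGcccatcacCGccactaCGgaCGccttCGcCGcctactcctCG
The Vmn1r159 run held 3 CG dinucleotides, that of Vmn1r138 held 2 and that of Nfix held 2, against 22 for Grm2 and 25 for Gabra2. Aligned end to end, the 2 vomeronasal promoters were identical in 281 of 305 columns (92.1%), whereas those of Grm2 and Gabra2 were identical in 158 of 355 (44.5%). Every 30-base word of the Vmn1r138 promoter (100%) and 88.9% of those of Vmn1r159 also occurred in the promoter of another gene, against 0% for the other 3.

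The domains were mostly just above the width chosen. Their median width was 1172 bp, the 25th and 75th percentiles were 1070 and 1346 bp, and the widest measured 5006 bp. Of the 8449, 7250 were under 1500 bp, 974 measured 1500 to under 2000 bp, 199 measured 2000 to under 3000 bp and 26 were wider still. Widths showed no break at the threshold, since 351 learning-free homecage peaks measured 990 to under 1000 bp and 360 measured 1000 to under 1010 bp. At gene ends, the narrowest domains taken in lay at Chst9 and Nipsnap3b (1001 bp each), and the widest left out lay at Pik3c2b (996 bp) and Zbtb41 (995 bp). Together the domains covered 10.7 Mb, or 8.04% of the sequence under homecage peaks.

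Absence from the learning list has to be read against the size of that list. It held 15844 peaks on the same chromosomes, 20.8 times fewer than the homecage list, and only 256 of 1000 bp or more. Of 10013 wide homecage peaks, 84.4% (95% interval 83.7 to 85.1) had no learning peak. The share of homecage peaks that overlapped a learning peak rose with width, from 1.33% at 300 to under 500 bp through 9.70% at 1000 to under 1250 bp and 49.0% at 2000 to under 3000 bp to 72.0% of the 93 peaks of 3000 bp or more. Behaviour, library yield and depth cannot be told apart as sources of this difference, because each condition is a single library. Intervals throughout are exact Clopper-Pearson intervals for shares and Newcombe intervals for differences at the 95% level. They cover counting error only and are too narrow as far as neighbouring peaks depend on each other.

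The domains lay at the ends of protein-coding genes more often than narrow peaks did, and much less often than wide peaks that had a learning peak. The midpoint of 598 domains (7.08%, 6.54 to 7.65) fell within 1 kb of an annotated end, that is the start or the finish of a gene. The share was 4.03% (3.92 to 4.15) of narrow peaks and 29.0% (26.7 to 31.3) of wide peaks with a learning peak. The domains exceeded narrow peaks by 3.04 percentage points (2.50 to 3.62), and did so on 19 of 19 chromosomes. They fell below wide peaks with a learning peak by 21.9 points (19.6 to 24.2), again on all 19. Overlap with the learning list defined both wide sets, so this second difference is a description that depends on where learning peaks lie. Midpoints were used so that a wide interval gains nothing from its length. The excess over narrow peaks was 1.69 points when homecage peaks closer than 1 kb were first joined, 4.68 points when any overlap counted, and 1.30 points (-0.96 to 5.06) for the 225 domains of 2000 bp or more, where the interval includes 0.

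Location changed with width in a different way in peaks with and without a learning peak. Among learning-free peaks, the share centred at a gene end was 3.69% at 300 to under 500 bp, 5.30% at 700 to under 1000 bp, 6.64% at 1000 to under 1250 bp and 8.21% at 1500 to under 2000 bp. It was 5.53% of the 199 domains of 2000 to under 3000 bp and 3.85% (1 of 26) above that, with intervals that include the values of narrower peaks. Homecage peaks that overlapped a learning peak were at gene ends in 29.5% of cases already at 300 to under 500 bp, and in 18.3% of cases at 2000 to under 3000 bp. Below 2000 bp, the gene end shares thus differed more between peaks with and without a learning peak than between widths. Overlap and width are both parts of the selection rule, so this contrast is a description. It also depends on where the learning peaks lie. The plot of gene end share by width shows both series.

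**Figure D1:**
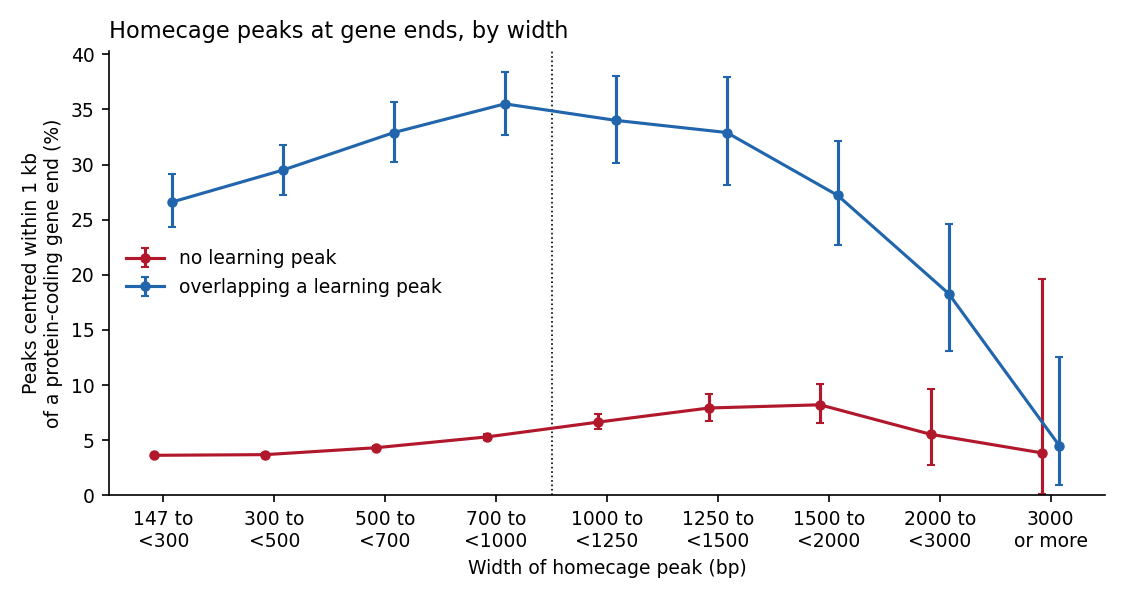
Share of homecage peaks (y axis, percent) centred within 1 kb of a protein-coding gene end, by peak width in bp (x axis), for peaks without (red) and with (blue) an overlapping learning peak; bars are exact 95% intervals and the dotted line marks 1000 bp. Right of the line, red points are the domains described here, between 3.85% and 8.21%, while blue points fall from 34.0% to 4.48%.

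Where strand was known, the domains gathered at gene starts and not at the other ends. The RefSeq promoter table gave the strand of 16457 of 20665 protein-coding genes, and 379 domains (4.49%) were centred within 1 kb of a start of these genes, against 136 (1.61%) at the other end. For narrow peaks the 2 shares were 2.07% and 1.36%, and for wide peaks with a learning peak 22.7% and 1.34%. Read at positions 250 bp apart, domains covered the position 250 bp downstream of the start in 1.92% of genes, 3.56 times the level of 0.539% found 20 to 50 kb away. They covered the start itself in 1.59% of genes and the position 1 kb upstream in 0.693%, so coverage leaned into the transcribed side. Around the other ends, domain coverage at the positions read within 5 kb never exceeded 1.11 times its distant level.

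**Figure D2:**
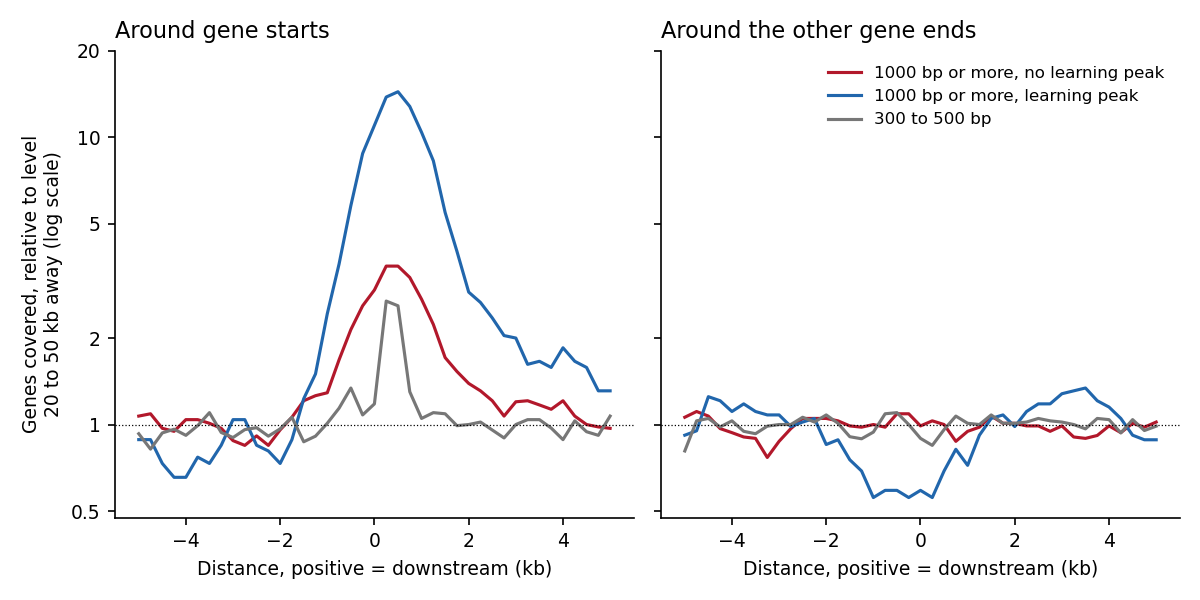
Share of 16457 genes covered at each distance (x axis, kb, positive downstream) from the gene start (left) and from the other end (right), divided by the level 20 to 50 kb away (y axis, log scale), for the learning-free domains (red), wide peaks with a learning peak (blue) and peaks of 300 to 500 bp (grey). Domains reach 3.56 times the distant level just inside the start, between narrow peaks at 2.69 and wide peaks with a learning peak at 14.4, and stay near 1 at the other ends.

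Most domains were away from gene ends. The midpoint lay inside a protein-coding gene for 3735 domains (44.2%, 43.1 to 45.3), and both inside a gene and over 1 kb from any end for 3317 (39.3%). Narrow peaks gave the same interior share of 39.3%, with a difference of -0.016 points (-1.09 to 1.07). Another 3754 domains (44.4%) lay over 10 kb from any protein-coding gene, 3.81 points fewer than narrow peaks (2.71 to 4.91 fewer, and fewer on all 19 chromosomes), and 586 (6.94%) lay over 500 kb away. Relative to narrow peaks, domains were thus more frequent at gene ends, as frequent deep in gene bodies and less frequent in gene deserts. Long non-coding RNA genes had a domain centred within 1 kb of an end in 247 cases (2.92% of domains, against 2.20% of narrow peaks). For microRNA genes, 13 domains (0.154%) were centred within 1 kb of an end, against 0.0944% of narrow peaks. The interval of this difference, -0.00735 to 0.17 points, included 0. A domain overlapped 8 microRNA genes, among them Mir219a-1 and Mir219c, which share a domain of 1479 bp at chr17:34023728-34025206, as well as Mir491, Mir582 and Mir1932.

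Counted by gene, 878 of 20665 protein-coding genes (4.25%, 3.98 to 4.53) had a domain over the 1 kb windows at their ends. The same count was 25.5% for narrow peaks and 3.02% for wide peaks with a learning peak. Of the 878 genes, 111 (12.6%) had some other learning peak at an end, against 16.5% of all protein-coding genes, a share the selection itself lowers. No learning peak lay anywhere in the body or within 1 kb of the ends of 613 of the 878 (69.8%). The selection itself raises this share, and the same share of all genes was not computed. Of the 784 domains in these windows, 133 (17.0%) reached the ends of 2 or more genes, so a domain cannot always be given to a single gene. The gene lists below are read against the 4.25% of all genes, and for most of them the interval includes it. No allowance was made for reading 22 lists at the 95% level.

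**Figure D3:**
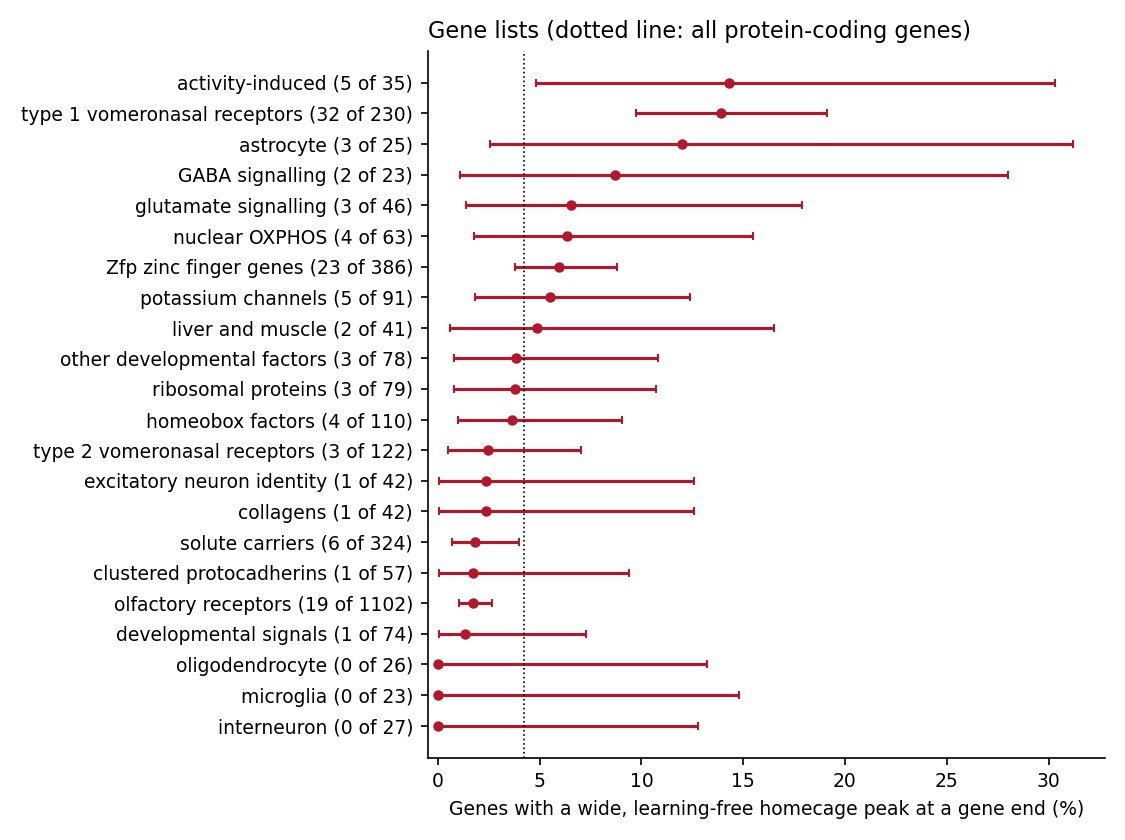
Share of the genes of each list with a learning-free wide homecage peak at a gene end (x axis, percent), with exact 95% intervals and the counts in brackets; the dotted line marks 4.25%, the share of all 20665 protein-coding genes. Activity-induced genes and type 1 vomeronasal receptors lie above the line with their whole interval, and olfactory receptors and solute carriers below it, the vomeronasal excess resting on a few megabases and the solute carrier interval reaching the line in other settings.

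In the list of activity-induced genes, 5 of 35 (14.3%, 4.81 to 30.3) carried a domain: Per1, Klf4, Jund, Gadd45g and Fosl2. Per1 encodes a repressor of the circadian clock and Klf4 a zinc finger factor. Jund and Fosl2 encode subunits of AP-1, and Gadd45g a stress sensor linked to DNA demethylation. The Per1 domain was 2944 bp wide (chr11:69095595-69098538), lay inside the gene at its start, and had its nearest learning peak 6705 bp away. The Klf4 domain (1721 bp, chr4:55532782-55534502) was centred upstream of the gene, at -1167 bp from the start, and that of Jund (1376 bp, chr8:70695906-70697281) at -1145 bp. At Fosl2 the domain (1227 bp, chr5:32135614-32136840) straddled the start. The Gadd45g domain (1284 bp, chr13:51847838-51849121) instead crossed the finish of that short gene. Jund also had a 707 bp learning peak at an end and was therefore not without learning signal. The nearest learning peak lay 1838 bp from the Jund domain and 1751 bp from that of Fosl2. A learning peak at an end was found for 8 of the 35 genes (22.9%, 10.4 to 40.1), against 16.5% of all genes. Any homecage peak at an end was found for 22 of the 35 genes (62.9%), close to the 64.2% of all genes. The list's excess over all genes was 10.0 points and ranged from 2.70 to 14.6 points over the other width, distance and window settings.

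Synaptic receptor genes carried domains at their ends at rates that could not be separated from those of all genes. For glutamate signalling the count was 3 of 46 (6.52%, 1.37 to 17.9). Grm2, a presynaptic metabotropic glutamate receptor, had a domain of 1586 bp across its start (chr9:106655771-106657356), over the CpG-rich promoter printed above, and the nearest learning peak was 83721 bp away. Gria4, an AMPA receptor subunit, had one of 1041 bp just inside its start (chr9:4795092-4796132), 246863 bp from any learning peak. The domain at Camk2a, the alpha subunit of calcium/calmodulin-dependent kinase II, measured 1158 bp and differed from both others in that a learning peak lay only 143 bp away. For GABA signalling the count was 2 of 23 (8.70%, 1.07 to 28.0). Gabra2, a GABA-A receptor subunit, had a domain of 1392 bp centred 65 bp from its start (chr5:71095088-71096479) and 160909 bp from a learning peak. Gabbr2, a GABA-B receptor subunit, had its domain (1520 bp, chr4:46662365-46663884) at the far end of the gene, 328589 bp from the start.

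Potassium channels, which set the resting potential and firing pattern of neurons, had a domain at an end in 5 of 91 genes (5.49%). Of these, 4 lay at or just inside the start. Kcng4, a modifier subunit, had the widest at 1966 bp (chr8:119632968-119634933), followed by Kcnj4, an inward rectifier, at 1844 bp (chr15:79510838-79512681) and Kcna6 at 1498 bp (chr6:126738897-126740394). That of Kcnf1 (1386 bp) was narrower. Inside gene bodies, domains were found in 32 of the 91 channel genes (35.2%) and in 21 of 46 glutamate genes (45.7%), against 13.8% of all genes. These genes are long, with a median of 36.2 kb and 102 kb against 17.5 kb, and how much of the difference goes with length was not tested.

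Developmental transcription factors stood near the background. Of 110 homeobox genes, 4 (3.64%) had a domain at an end, among them Meis3 and Meis1 of the TALE class and Cux1 of the cut class, regulators also used in the nervous system. The Meis3 domain was 1690 bp wide (chr7:16174775-16176464), and those of Meis1 (1158 bp) and Cux1 (1156 bp) were close to the threshold. Cux1 and Meis1 were 168967 and 166748 bp from the nearest learning peak. Of 78 other developmental factors, 3 (3.85%) had one. Id3, an inhibitor of basic helix-loop-helix factors, had one of 1201 bp upstream of its start, and Sox8 one of 1114 bp. Wnt7b was the single hit among 74 developmental signal genes (1.35%). Homecage peaks of any width at an end were found for 31.8% of the homeobox genes, 52.6% of the other factors and 56.8% of the signal genes. The share of all genes was 64.2%.

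Lists of cell type genes had few members with domains, and tissue composition cannot be read from them. Astrocyte genes gave 3 of 25 (12%, 2.55 to 31.2), namely Agt (angiotensinogen), Aldoc (aldolase C) and Id3 again. Excitatory neuron identity genes gave 1 of 42, Stxbp6, whose domain of 1021 bp lay at the far end of the gene. Interneuron genes gave 0 of 27, oligodendrocyte genes 0 of 26 and microglia genes 0 of 23, which allows shares of up to 12.8%, 13.2% and 14.8%. Genes of liver and muscle, a list not tied to the hippocampus, gave 2 of 41 (4.88%), the adjacent cardiac myosin heavy chain genes Myh6 and Myh7, a share like that of all genes. In whole tissue, fewer cells with a mark and less of the mark per cell cannot be told apart.

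Among the remaining lists, nuclear genes of oxidative phosphorylation had domains in 4 of 63 cases (6.35%). Domains crossed the start of Ndufb3 (1469 bp) and Ndufa12 (1298 bp) of complex I and of Atp5h (1149 bp) of the ATP synthase. That of Ndufv2 (1871 bp), also of complex I, lay upstream of the gene, centred at -1225 bp from the start. A learning peak lay 504 bp from it, and Ndufv2 had a 211 bp learning peak at an end. The Ndufb3, Ndufa12 and Atp5h domains also reached the ends of the neighbouring genes Fam126b, Nr2c1 and Kctd2. Ribosomal protein genes gave 3 of 79 (3.8%), with Rpl32l, Rpl21 and Rpl36. Solute carriers gave 6 of 324 (1.85%, 0.683 to 3.99), a difference of -2.40 points (-3.44 to -0.251) from all genes whose interval included 0 with peaks of 800 bp or more (-2.11, -4.35 to 1.13) and in 5 of the other settings. Among them the zinc transporter gene Slc39a3 had the widest domain at 1844 bp. Collagen genes gave 1 of 42 (Col11a2) and clustered protocadherins 1 of 57 (Pcdhb1).

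The 15 widest domains at gene ends, receptor genes apart, lay at genes of varied function. Smarcd1, a subunit of the SWI/SNF remodeller, shared a domain of 3261 bp at its finish with Gpd1 (chr15:99713390-99716650), and a separate learning peak of 774 bp lay at an end of the gene. Rybp, a component of Polycomb repressive complex 1, had one of 2114 bp inside the gene (chr6:100285167-100287280). Cbx6, a Polycomb chromobox gene, shared one of 2147 bp with Npcd (chr15:79832862-79835008), 49384 bp from the nearest learning peak. Hexim2, an inhibitor of the elongation factor P-TEFb, had one of 2516 bp (chr11:103139382-103141897), 1068 bp from a learning peak. A domain of 2106 bp crossed the start of Zdhhc3, a palmitoyltransferase gene, and reached an end window of Exosc7, an RNA exosome gene (chr9:123112590-123114695). It lay 40907 bp from a learning peak. Another of 2156 bp lay beyond the finish of Ripk1 and reached an end window of Bphl. It was 33403 bp from a learning peak, though Ripk1 had a 164 bp learning peak at an end. The 15 widest also held Per1 and 7 genes of multicopy families or without an established function: Gm42346 (3297 bp), 1700001F09Rik (3126 bp), Gm21162, Gm4565, Gm7954, Zfp988 and Mup18. The domains of these 7 lay 536 bp (Zfp988) to 7159 bp (Gm42346) from a learning peak.

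Type 1 vomeronasal receptor genes carried domains most often among the large families. Of 230 genes, 32 (13.9%, 9.72 to 19.1) had a domain at an end, against 3 of 122 type 2 vomeronasal receptor genes (2.46%) and 19 of 1102 olfactory receptor genes (1.72%, 1.04 to 2.68). Homecage peaks of any width at an end were found for 59.1%, 63.1% and 46.9% of these families in the same order, against 64.2% of all genes. These receptors are made in the sensory neurons of the nose and serve pheromone and odour detection. The widest were 4128 bp at Vmn1r250 (chr7:22130653-22134780), 3908 bp at Vmn1r159 (chr7:22840299-22844206) and 2738 bp at Vmn1r138 (chr7:22027069-22029806). Each was wider than the gene it overlapped, as the median gene of the family measures 0.924 kb. The nearest learning peak was 344 bp from the Vmn1r250 domain and 814 bp from that of Vmn1r159, but 30830 bp from that of Vmn1r138. The family's excess over all genes, 9.66 points, rested on a few megabases. When the 25 megabases with most homecage peaks were left out together with the genes in them (85 of the 230), 3 of the remaining 145 genes (2.07%, 0.429 to 5.93) had a domain, against 4.01% of the remaining genes. Near-identical copies, as in this family, can share short reads, and how the aligner placed such reads is not given in the sources used here.

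Zinc finger genes named Zfp stood between. Of 386, 23 (5.96%, 3.81 to 8.81) had a domain at an end, led by Zfp988 (2218 bp, chr4:147302772-147304989), Zfp831 (1557 bp) and Zfp664 (1517 bp). The difference from all genes was 1.71 points (-0.266 to 4.55). Its interval excluded 0 with peaks of 800 bp or more (4.62, 1.57 to 8.38) and with 3 kb windows (2.98, 0.371 to 6.38), and included 0 in the other settings. The protein-coding genes with most domains in their body were 2 of this family, Zfp993 with 18 in 479 kb and Zfp978 with 17 in 267 kb, and they also held 51 and 66 learning peaks. Gse1, which encodes a coiled-coil protein of a histone deacetylase complex, came next with 12 domains in 353 kb and 14 learning peaks. Kalrn, a guanine nucleotide exchange factor of dendritic spines, held 10 domains in 604 kb and 5 learning peaks. Across genes, domains were densest in the shortest class, at 8.63 per Mb of genes under 10 kb against 2.75 per Mb of genes of 500 kb or more. Narrow peaks differed less, with 61.1 and 46.0 per Mb. Both counts took any overlap, so an interval gains from its own length, wide domains more than narrow peaks and most in short genes. The shortest class also includes type 1 vomeronasal receptor genes, of median 0.924 kb. How much of the difference goes with either was not tested.

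Along the chromosomes, domains concentrated in a few megabases that hold gene families in many copies. Chromosome 7 had most, at 5.14 per Mb, and chromosome 19 fewest, at 2.81, around a median of 3.20. Of 2413 megabase bins with a homecage peak, 2270 held a domain and the median was 3 per bin, but 17 bins with 20 or more held 549 domains (6.5%). The same bins held 1.15% of narrow peaks and 8.63% of learning peaks, so they stood out in both antibody lists. The 87 domains between 22 and 23 Mb of chromosome 7 and the 69 between 20 and 21 Mb lay among type 1 vomeronasal receptor genes and made up 18.8% and 16.9% of the homecage peaks there, against 2.56% over all chromosomes. Next came bins of chromosome 4 with Zfp genes (36 domains between 147 and 148 Mb) and with major urinary protein genes (32 between 61 and 62 Mb), and bins with Pramel genes on chromosome 5, Obox genes on chromosome 7 and the Sp100 cluster on chromosome 1. Whether unresolved copies of these regions, which can gather reads from several loci, bear on the density was not tested.

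**Figure D4:**
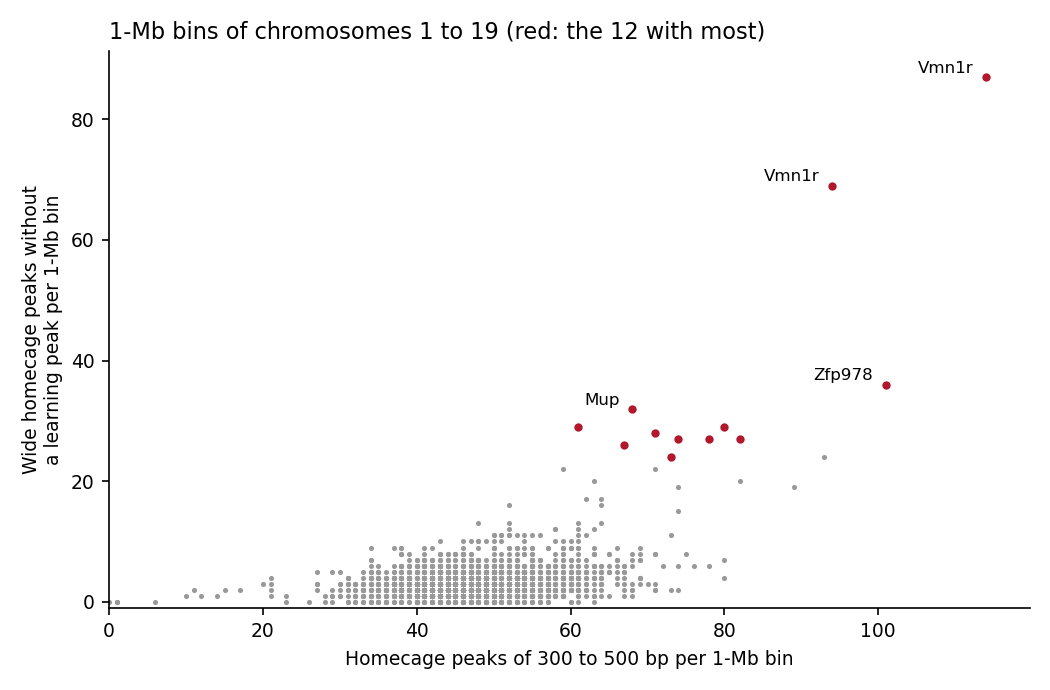
Number of learning-free wide homecage peaks (y axis) against the number of homecage peaks of 300 to 500 bp (x axis) in each 1-Mb bin of chromosomes 1 to 19; red points are the 12 bins with most domains, labelled by gene family where space allows. Most bins hold about 3 domains, and the 2 bins of Vmn1r genes reach 87 and 69.

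Domains also lay closer to each other than narrow peaks lay to domains. Another domain was found within 10 kb of 1253 (14.8%, 14.1 to 15.6), against 7.56% of narrow peaks and 29.2% of wide peaks with a learning peak. Domains had a mean of 3.55 other homecage peaks within 10 kb, narrow peaks 2.82 and wide peaks with a learning peak 5.38. In 97 places 3 or more domains followed each other at gaps of 10 kb or less, and these runs held 391 domains. The longest was a run of 13 in 65.3 kb over Vmn1r100 and Vmn1r101 (chr7:20382214-20447469), followed by 12 in 57.9 kb over Vmn1r159 and Vmn1r160. A run of 10 in 38.0 kb at the beginning of the assembled chromosome 9 (chr9:3000237-3038240) overlapped no RefSeq gene. It held the 2 widest domains of all, 5006 bp at chr9:3012240-3017245 and 4584 bp at chr9:3000237-3004820, 318 and 330 kb from the nearest protein-coding gene, Alkbh8. Whether this stretch is repeat sequence, where short reads cannot be placed uniquely, was not checked, and the input libraries were not analysed. The third widest domain away from genes measured 3990 bp (chr7:15222841-15226830), 162 kb from Obox2.

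Although no learning peak overlapped them, the domains lay nearer to learning peaks than learning-free narrow peaks did. A learning peak lay within 1 kb of 444 domains (5.26%) and within 10 kb of 1884 (22.3%, 21.4 to 23.2), against 1.63% and 12.3% of 113928 learning-free narrow peaks. The median distance was 47.0 kb against 65.6 kb. The share within 10 kb was 35.6% for domains of 1500 bp or more and 58.2% for those of 2000 bp or more. The 2 widest domains of all, on chromosome 9, went against this, at 236979 and 249404 bp from a learning peak. Without the 25 megabases richest in homecage peaks it was 17.5%. As the selection used the learning list, these distances are a description.

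Promoters under the domains were moderately CpG-rich. Of 20085 RefSeq promoters with positions, 417 of 379 genes overlapped a domain, and their median ratio of observed to expected CG dinucleotides was 0.693 (0.658 to 0.715). The ratio is near 1 where CG occurs as often as base composition predicts and low where it has been lost. The median was 0.658 (0.616 to 0.691) for 909 promoters under narrow peaks alone, 0.586 for all promoters and 0.844 (0.822 to 0.861) for 515 promoters under wide peaks with a learning peak. The intervals of domains and narrow peaks overlapped, and under domains of 1500 bp or more the median was 0.601. A ratio above 0.6 was found for 60.9%, 54.7%, 48.9% and 80.2% of these 4 sets in the same order. Against this scale the promoters printed above have ratios of 0.309 (Vmn1r159), 0.214 (Vmn1r138), 0.138 (Nfix), 0.641 (Grm2) and 0.721 (Gabra2).

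**Figure D5:**
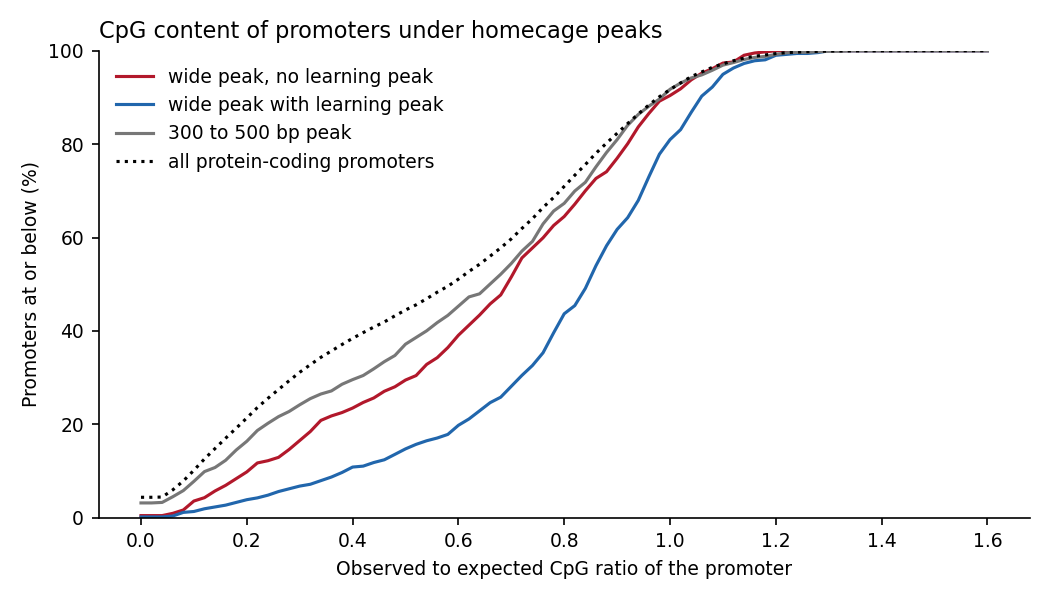
Cumulative share of promoters (y axis, percent) at or below each observed to expected CpG ratio (x axis), for promoters under learning-free wide homecage peaks (red, 417), wide peaks with a learning peak (blue, 515), 300 to 500 bp peaks only (grey, 909) and all protein-coding promoters (dotted, 20085). The red and grey curves have medians of 0.693 and 0.658, red being the lower curve at low ratios and meeting grey at high ratios, and the blue curve lies to the right with a median of 0.844.

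GC box and TATA box letters differed in frequency between promoters under domains and all promoters, while the intervals for promoters under domains and under narrow peaks overlapped. The GC box GGGCGG occurred in 58.5% (53.6 to 63.3) of promoters under domains, 54.2% (50.9 to 57.5) under narrow peaks, 73.8% under wide peaks with a learning peak and 47.0% of all promoters. The TATA box TATAAA occurred in 8.39% (5.92 to 11.5), 9.35% (7.54 to 11.4), 3.3% and 12.7% of them. The cAMP response element TGACGTCA occurred in 3.12% (1.67 to 5.27) against 2.30%, and the E-box CACGTG in 8.39% against 7.89%, both intervals including the share of all promoters. Both strands of the same 300 bases were searched each time, none of the 4 motifs contains another, and a match describes letters and not a bound factor. The Grm2 and Gabra2 promoters each held a GC box, Vmn1r159 a TATA box, and those of Vmn1r138 and Nfix none of the 4 motifs. At least 50% of 30-base words were shared with another gene's promoter in 29 of the 417 (6.95%, 4.71 to 9.84), against 5.5% (4.11 to 7.19) of those under narrow peaks and 4.15% of all promoters, and 17 of the 29 belonged to vomeronasal receptor genes.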

How the data were processed

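Of 12 libraries in the series, the 2 pan-Kcr ChIP-seq libraries were analysed, grouped by title. Each deposited list gives chromosome, start, end and name of a peak. Per the file contents, names read broad peaks at a p-value of 0.01. Trimmomatic, BWA, MACS2 and mm10 are listed, without roles or versions, in the submitters' processing notes. Use of an input as control, read filters and pooling are not given in the sources used here. The deposited values are positions in bp with no count, signal or score, so read depth and strength are unknown and no test across conditions was possible.

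Genes came from the RefSeq table of GRCm38.p6 (20665 protein-coding genes on chromosomes 1 to 19). It holds no strand, so windows of 1 kb around both gene ends replaced the intended start windows. Strand and sequence came from the RefSeq promoter table of the same build (20085 promoters of 16457 genes, matched by gene ID). Overlap meant 1 bp or more. Intervals of medians come from order statistics. A promoter under a narrow peak only overlaps no wide peak. The distance profile counted genes whose position at a fixed offset lay under a peak.

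Members, 22 gene lists and reference sets were chosen with earlier results of these data known. Of the listed symbols, 11 were not on chromosomes 1 to 19. Named genes were those with the 15 widest members at a gene end (vomeronasal and olfactory receptor genes apart, the 3 widest), the 3 widest of each list, the 3 widest members over 50 kb from a gene, the 3 genes with most members in the body and 2 genes on each side of the width threshold. Where 4 or 5 genes of a list had a member, the others were named after their values were seen, as were Kalrn, the microRNAs, the gene families of the dense bins and the longest runs. Alternatives were 13 settings of width, learning distance, joining, dense bins, windows, overlap and reference. Overlap, distance and interval functions were tested on simulated data. Computation used scipy 1.17.1, pandas 2.3.3 and numpy 2.4.6 under Python 3.11.15, and plots used matplotlib 3.10.9. Some items that the naming rule selects are not reported here.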

Additional observations from a re-analysis of the deposited data

Results flagged for a closer look

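Peaks outside chromosomes 1 to 19 entered no comparison above, and wide homecage peaks without a learning peak were found there too. On X there were 41 among 1089 homecage peaks (3.76%, 2.72 to 5.07), or 64.1% of 64 wide peaks. On Y there were 5 among 639 (0.782%, 0.255 to 1.82), or 55.6% of 9 wide peaks. On sequences outside the assembled chromosomes there were 95 among 932 (10.2%, 8.33 to 12.3), or 55.9% of 170 wide peaks, the widest of them 18060 bp. The share of all homecage peaks on chromosomes 1 to 19 was 2.56% (2.51 to 2.62), below that of X and of the unplaced sequences and above that of Y beyond counting error. The higher share on X is not a higher number, since X held few homecage peaks of any width. Chromosome 19, with the fewest peaks of chromosomes 1 to 19, held 7811 homecage peaks and 164 domains. The share of wide peaks without a learning peak was 84.4% (83.7 to 85.1) on chromosomes 1 to 19, above all 3 shares given here, though for Y the interval of 21.2 to 86.3% includes it. No control list was analysed here. All 3 counts exceed the limit of 3 that a count of 0 allows, which cannot tell true from false peak calls.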

How the results depend on the processing

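With 1 library per condition, and neither depth nor strength in the lists, no value here has a replicate check. Of 49 recomputed main values, 11 stayed within the interval of the value above (counts, within 1.5 times) and 38 did not. With the width set to 800, 1500 or 2000 bp the domains numbered 20297, 1199 and 225, the genes with one at an end 1776, 158 and 33, the share centred at a gene end was 6.23%, 7.67% and 5.33%, its excess over narrow peaks 2.2, 3.64 and 1.3 points, and the share with a learning peak within 10 kb 18.8%, 35.6% and 58.2%. The share in gene bodies was 45.5% at 1500 bp and 36.0% at 2000 bp. At 1500 bp the median CpG ratio was 0.601, -0.0567 relative to narrow-peak promoters, against 0.035 above. Joining peaks closer than 1 kb gave 32936 domains, 2877 genes, 5.37% at gene ends, an excess of 1.69 points, 42.7% in gene bodies and 15.3% near a learning peak. Requiring no learning peak within 1 kb gave 18% within 10 kb. Without the 25 megabases with most homecage peaks, 45.9% lay in gene bodies, 17.5% within 10 kb of a learning peak, and the type 1 vomeronasal receptor difference turned to -2.64 points, a turn built into this setting, which kept the genes of the removed megabases in the count. With those genes left out too, a setting added after seeing the data, it was -1.94 points (-3.33 to 1.91). With 3 kb windows, 13.2% of domains and 1418 genes counted, with an excess of 3.88 points. With any overlap, 9.28% lay at gene ends, an excess of 4.68 points, and 45.7% in gene bodies. Against peaks of 500 to 700 bp the excess was 2.08 points. Promoters wholly inside a domain had a median CpG ratio of 0.725, higher by 0.0673 than under narrow peaks, and the difference from all promoters was 0.107. The excess at gene ends stayed above 0 in every setting run, with an interval including 0 at 2000 bp. The settings for learning peaks within 10 kb were added after seeing the data. Of 176 recomputed list differences, 153 kept their sign. The cause was not tested for the other shifts.

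No paired analysis was possible because the antibody libraries number 1 per condition and no model was fitted.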
